A study of Rattus norvegicus with 6 samples.

Results

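Tau, encoded by Mapt, MAP2, MAP1A, MAP1B and the stathmins bind microtubules or their tubulin subunits, and their transcripts were followed in the medial prefrontal cortex (mPFC) of rats after a single dose of lysergic acid diethylamide (LSD). The members were all probe sets annotated with exactly 1 gene symbol, where that symbol was Mapt, Map2, Map1a, Map1b, Stmn1 or Stmn2. A probe set is a group of short array probes summarised as 1 value. The rule found 14 of the 8740 probe sets tested, of 5 of the 4736 genes with a probe set of their own, namely 3 for Mapt, 5 for Map2, 2 for Map1a, 3 for Map1b, 1 for Stmn1 and 0 for Stmn2. No probe set named a member together with another gene. Mapt was chosen by its measured difference between LSD and saline in these same arrays, since 1 of its probe sets had passed the threshold and the others had not followed it. The values of that contrast are therefore given as a description of the members, without a test of them.

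The animals were male Sprague-Dawley rats of 250 to 275 g, whose age the labels do not give. One group received LSD intraperitoneally at 1.0 mg/kg and the other received saline, and the mPFC was taken at 90 min. Each group was read on 3 Affymetrix rat arrays. The labels describe tissue of 4 animals pooled per group, while the study describes independent pools of rat pairs, so the spread between arrays of a group may be technical. In addition, the second line of the sample descriptions names the opposite treatment from the title and treatment label. Titles and labels were followed here, and every sign below turns if the second line is right. Saline 1 stood apart from the other arrays, with 78 probe sets over 1 log2 unit away from the average of the remaining 5, against 2 to 21 for each of those. The members' values are therefore also given without it.

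Microtubules are polymers of alpha- and beta-tubulin that give axons and dendrites their shape and serve as tracks for transport. Tau is enriched in axons and MAP2 in dendrites, and both stabilise the polymer through related repeats near their C-terminus. MAP1A and MAP1B form a separate family, in which MAP1B prevails in growing neurites and MAP1A in mature neurons. Stathmin 1 binds free tubulin and favours disassembly. Phosphorylation of tau by kinases such as GSK3 beta and CDK5 lowers its affinity for microtubules, and the abnormal aggregation of tau is known from Alzheimer's disease.

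The 3 probe sets of Mapt did not behave alike. On X79321_at the log2 values were 9.36, 9.38 and 9.41 on the saline arrays and 8.75, 8.72 and 8.67 on the LSD arrays. All 3 LSD arrays lay below all saline arrays, with a gap of 0.61 log2 units between the nearest arrays of the groups. The difference was -0.67 ± 0.077 log2 units (SE), which is 1.59-fold lower after LSD, and this is the value on which the gene was chosen. It was the 1 member probe set of 14 that passed an adjusted p of 0.05 in limma over all probe sets, where the share called was 0.0686%. Because the rule used this contrast, nothing is read from that count. The other 13 were not called.

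A second Mapt probe set, rc_AI227608_s_at, went the other way. Its log2 values were 10.19, 10.16 and 9.96 on the saline arrays and 10.31, 10.46 and 10.41 on the LSD arrays. All LSD arrays lay above all saline arrays, although the gap of 0.12 log2 units was similar to the spread within the groups. The difference was 0.29 ± 0.096 log2 units (SE, 95% interval 0.07 to 0.51), which is 1.22-fold, and it was not called. The third, rc_AA957930_s_at, overlapped between the groups. It read 9.42, 9.47 and 9.53 on the saline arrays and 9.45, 9.47 and 9.41 on the LSD arrays, a difference of -0.03 ± 0.080 log2 units (SE, 95% interval -0.21 to 0.16). The suffix _s_at marks probe sets that can match several transcripts, of the same gene or of different genes. The annotation names Mapt alone for the second and the third. Which transcripts gave their signals was not worked out, so an assignment to Mapt, or to a single form of its mRNA, is not certain. The same limit holds for all other probe sets with this suffix, those of Map2, Map1a and Map1b and those of other genes below. This limit does not show that X79321_at is the truer reading of tau mRNA. The positions of the probes on the transcript were not analysed here.

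**Figure D1:**
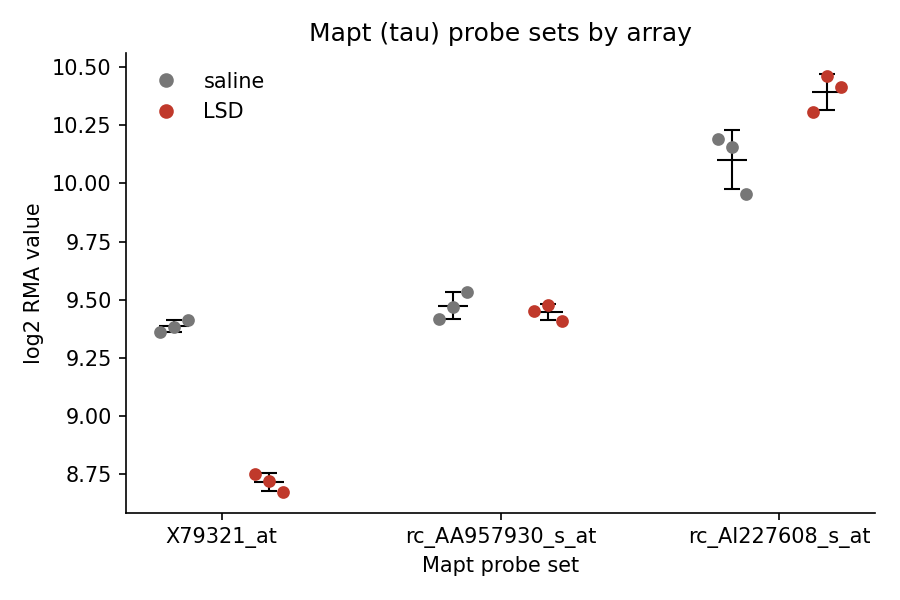
Log2 RMA values (vertical axis) of the 3 Mapt probe sets (horizontal axis), each array being 1 point (grey for saline, red for LSD), with the mean and SD in black (n = 3). X79321_at is lower on all 3 LSD arrays, rc_AI227608_s_at is higher on all 3 and rc_AA957930_s_at overlaps, and heights are not comparable between probe sets.

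The same contrast can be read within each array, where the 3 probe sets saw the same labelled RNA. The value of rc_AI227608_s_at minus that of X79321_at was 0.83, 0.78 and 0.54 log2 units on the saline arrays and 1.56, 1.74 and 1.74 on the LSD arrays. The groups were 0.73 log2 units apart at their nearest arrays. For rc_AA957930_s_at minus X79321_at the within-array values were 0.06, 0.09 and 0.12 with saline and 0.70, 0.76 and 0.74 with LSD. The group means of this pair were 0.64 log2 units apart, with SDs of 0.032 and 0.026 (n = 3). The remaining pair, rc_AI227608_s_at minus rc_AA957930_s_at, shifted by 0.32, from 0.63 ± 0.18 to 0.95 ± 0.080 log2 units (SD, n = 3), with a gap of 0.08 between the groups. These differences restate the contrast by which Mapt was chosen and are given as a description, and they do not say which probe set held its level.

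**Figure D2:**
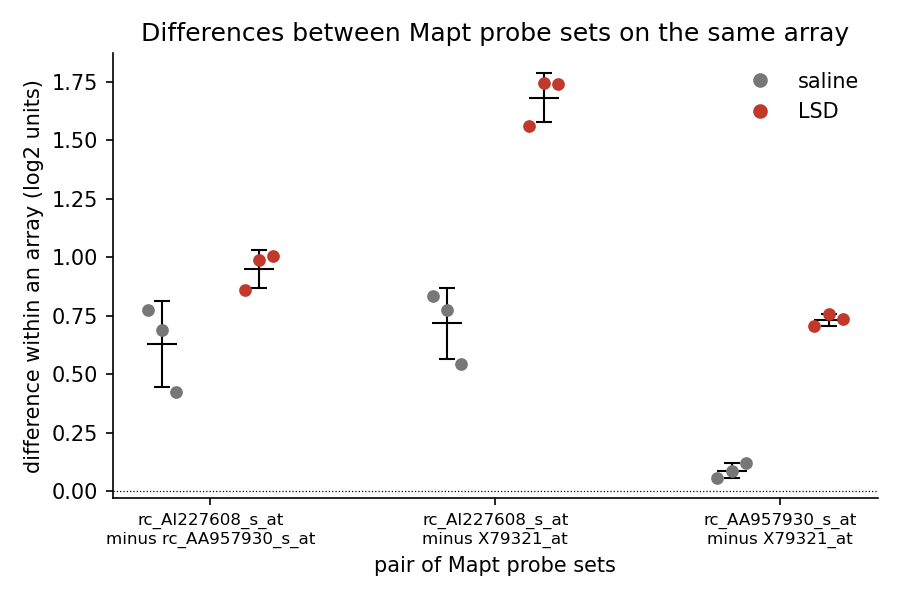
Differences between pairs of Mapt probe sets on the same array in log2 units (vertical axis), each array being 1 point (grey for saline, red for LSD), with the mean and SD in black (n = 3). The groups are separate for each of the 3 pairs, and the pair of rc_AI227608_s_at and X79321_at shifts by 0.96 log2 units.

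A single value for Mapt thus depended on how its probe sets were combined. The probe set with the highest mean, which the study's methods take where several IDs share a symbol, gave 0.29 log2 units, with LSD arrays above saline arrays. The mean of the 3 probe sets gave -0.14, from 9.65 ± 0.018 with saline to 9.52 ± 0.029 with LSD (SD, n = 3), with LSD arrays below saline arrays. Their median gave -0.03, with overlap. The direction given for tau mRNA therefore turned with the rule, a comparison added after the values had been seen.

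Disagreement of this size between probe sets of 1 gene was uncommon on these arrays. The log2 changes of the Mapt probe sets spanned 0.96 log2 units, while the median span over 1565 genes with several probe sets was 0.12. A span at least that wide was found for 6 of these genes, Mapt included, the others being Cyb5a (1.34), Scd2 (1.30), Top2a (1.08), Gadd45a (1.07) and Cyp2c12 (0.97). Among genes with exactly 3 probe sets the median span was 0.17 and 3 of 348 had a span at least as wide, Mapt included. When only probe sets with a mean above the median of the array were kept, this held for 2 of 745 genes, Mapt again included. Probe sets without overlap between the groups in opposite directions were found in 16 of the 1565 genes (1.02%), Mapt included. Among the 348 genes with exactly 3 probe sets, 6 had them (1.72%), Mapt again included. Since Mapt entered through an extreme value of this contrast, these counts describe its place among the genes and are not a test.

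**Figure D3:**
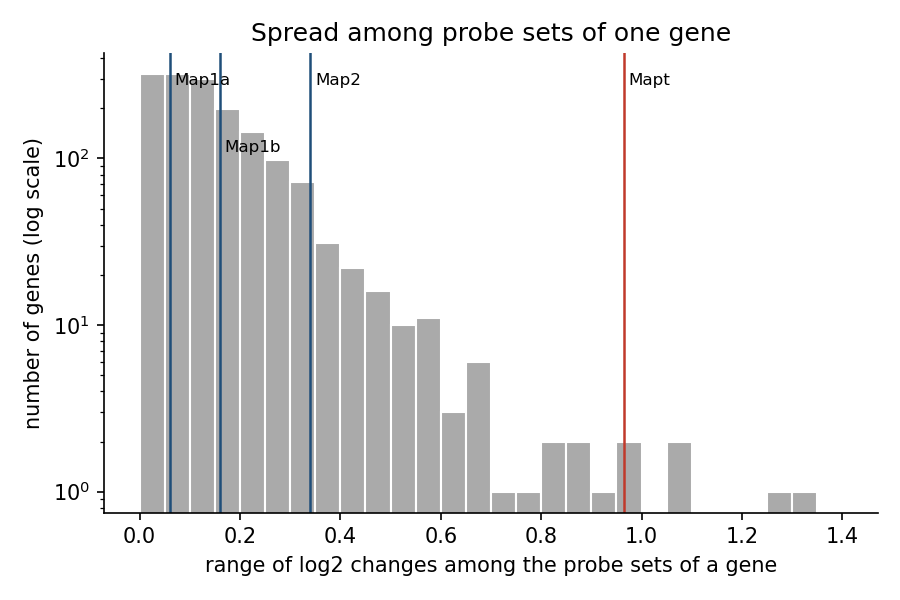
Number of genes (vertical axis, log scale) by the span of log2 changes among the probe sets of a gene (horizontal axis), for 1565 genes with several probe sets. Vertical lines mark Mapt at 0.96 in red and Map2 at 0.34, Map1b at 0.16 and Map1a at 0.06 in blue.

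The arrays of a group were close to each other for X79321_at. Its SD pooled over the groups was 0.032 log2 units, and 1.06% of all probe sets had a lower one, against a median of 0.13 over all probe sets. For rc_AA957930_s_at it was 0.047 and for rc_AI227608_s_at 0.11. Changes larger in size than that of X79321_at were measured on 25 of 8740 probe sets (0.286%). Without Saline 1 the differences were -0.68, 0.34 and -0.06 log2 units for X79321_at, rc_AI227608_s_at and rc_AA957930_s_at. The call of X79321_at in limma was lost without any 1 of the 6 arrays, with adjusted p from 0.0876 to 0.351, while its log2 change stayed between -0.69 and -0.65.

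Among the other members, none of 11 probe sets passed in limma over all probe sets, and 1 had an unadjusted p below 0.05, where the share over all probe sets was 3.92%. Their log2 changes ran from -0.09 to 0.25. The 95% intervals of all 11 lay within a 1.5-fold change either way on the RMA scale, from 0.763-fold to 1.36-fold at the widest, and this scale compresses the changes of dim probe sets.

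Map2, which encodes the dendritic protein MAP2, had 5 probe sets. The one with an unadjusted p below 0.05 was rc_AI228850_s_at, which read 6.60, 6.60 and 6.66 log2 units with saline and 6.76, 6.91 and 6.93 with LSD. All LSD arrays lay above all saline arrays, by a gap of 0.10 log2 units. The difference was 0.25 ± 0.086 log2 units (SE), or 1.19-fold, and it was not called. The probe set with the highest mean, U30938_at, read 9.25, 9.07 and 9.00 with saline and 9.09, 8.97 and 8.98 with LSD. These groups overlapped and differed by -0.09 ± 0.096 log2 units (SE), a value that moved to -0.02 without Saline 1. The remaining Map2 probe sets overlapped as well, at 0.05 for X53455cds_s_at, 0.05 for the dim S74265_s_at and -0.00496 for X17682_s_at. The span for Map2 was 0.34 log2 units.

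Map1a and Map1b encode large proteins that are cut into heavy and light chains. The Map1a probe set M83196_at read 8.95, 9.02 and 9.10 log2 units with saline and 9.15, 9.02 and 9.00 with LSD. It overlapped between the groups, with a difference of 0.03 ± 0.087 (SE). The dimmer X66840cds_s_at differed by -0.03 ± 0.14 (SE), and on it Saline 1 lay 0.32 log2 units above the mean of the other saline arrays. Without that array its difference was 0.08. All 3 Map1b probe sets overlapped, at 0.09 for U52950_at, 0.05 for the dim U52950_g_at (mean 3.09 log2 units) and -0.07 for X16623cds_s_at. The first and the second share a source sequence and are not independent. On X16623cds_s_at Saline 1 was 0.46 log2 units above the mean of the other saline arrays, and without it the difference was 0.08 in place of -0.07. The SDs pooled over the groups lay between 0.16 and 0.21 for the Map1b probe sets. Stmn1, the gene of stathmin 1, was read by rc_AI231821_at alone, at 9.29, 9.37 and 9.38 log2 units with saline and 9.32, 9.32 and 9.15 with LSD. The groups overlapped and differed by -0.08 ± 0.087 (SE). Stmn2, whose protein acts in growing axons, was not analysed here.

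Saline 1 was also left out for the remaining probe sets. Without it the difference was 0.24 log2 units for rc_AI228850_s_at of Map2, -0.11 for Stmn1 and -0.0056 for M83196_at of Map1a. For U52950_at and U52950_g_at of Map1b it was 0.03 and -0.03. For Map2 it was 0.02 on X53455cds_s_at, 0.06 on S74265_s_at and -0.01 on X17682_s_at.

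**Figure D4:**
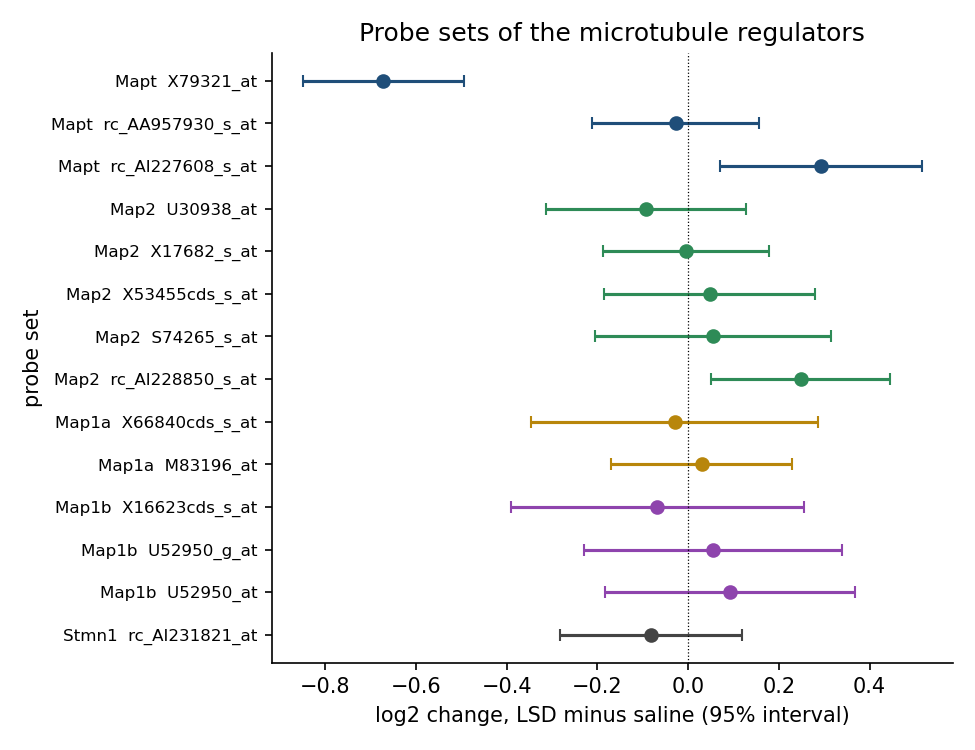
LSD minus saline in log2 units (horizontal axis) for each of the 14 probe sets (vertical axis), with points for the limma estimate and bars for its 95% interval (n = 3 arrays per group), coloured by gene. X79321_at of Mapt lies apart from the others at -0.67, and rc_AI227608_s_at of Mapt and rc_AI228850_s_at of Map2 lie above 0.

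By counts, 7 of the 14 probe sets were higher and 7 lower after LSD. Their median log2 change was 0.01, where the median over all 8740 probe sets was 0.0045. The groups did not overlap with LSD higher for 2 of the 14, against 6.58% of all probe sets, and with LSD lower for 1, against 3.79%. These are small counts, 2 of the 3 belong to Mapt, and the contrast chose that gene.

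Other genes of the microtubule system were examined by role, in 5 lists of genes chosen for their function. These lists held 81 probe sets of 57 genes, of which 39 were higher and 42 lower, and the median log2 change was -0.0033. None passed in limma over all probe sets, and 1 had an unadjusted p below 0.05. The groups did not overlap for 6 of the 81 with LSD higher, against 6.58% of all probe sets, and for 3 with LSD lower, against 3.79%. These counts are near the background.

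Other microtubule-associated proteins had 4 of 12 probe sets higher and 8 lower, with a median of -0.02. Dpysl2, which encodes the tubulin-binding protein CRMP-2, supplied the probe set with an unadjusted p below 0.05. This was rc_AA875444_at, at 5.62, 5.59 and 5.43 log2 units with saline and 5.88, 5.71 and 5.79 with LSD (difference 0.25 ± 0.093, SE, limma adjusted p = 0.981). As for Mapt, another probe set of the gene had the opposite sign, Z46882cds_at at -0.16 ± 0.12 (SE) with overlapping groups. Mapre1, the gene of the plus-end binding protein EB1, differed by 0.17 ± 0.095 (SE, limma adjusted p = 0.981), without overlap.

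Tubulins had 2 of 7 probe sets higher and 5 lower, with a median of -0.08. Tuba4a read 9.24, 9.19 and 9.14 log2 units with saline and 9.10, 9.13 and 9.00 with LSD, a difference of -0.11 ± 0.082 (SE). Tuba1b likewise differed by -0.11 ± 0.085 (SE). Both were separate between the groups by less than their spread, and neither passed (limma adjusted p = 0.981). Tubb2b differed by -0.08 on X03369_s_at and -0.12 on X03369_i_at, with overlap. Both share a source sequence and are not independent. Kinesin and dynein motors, which walk along microtubules, had 10 of 22 higher and 12 lower with a median of -0.0056. The dynactin subunit gene Dctn4 differed by 0.34 ± 0.17 (SE) with overlap. The kinesin light chain gene Klc1 differed by 0.17 ± 0.093 (SE) on rc_AI073056_s_at, 0.14 on rc_AA818427_at and -0.0089 on M75148_at, all with overlap. The kinesin gene Kif3c differed by -0.17 ± 0.11 (SE) on AF083330_at, without overlap, and by -0.06 on rc_AI013107_at, with overlap.

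Kinases and phosphatases that act on tau had 18 of 34 probe sets higher and 16 lower, with a median of 0.01. Gsk3b, the gene of the tau kinase GSK3 beta, was measured on X73653_at at 5.23, 5.04 and 4.97 log2 units with saline and 5.16, 5.35 and 5.55 with LSD. The groups overlapped, and the difference of 0.28 ± 0.12 (SE) did not pass (limma adjusted p = 0.981). A second Gsk3b probe set, X53428cds_s_at, had the opposite sign at -0.07 ± 0.15 (SE), also with overlap. Prkacb, a catalytic subunit of protein kinase A, differed by 0.15 on rc_AA891881_at, with overlap, and by 0.10 on D10770_s_at, without. Ppp2r2b, a regulatory subunit of the phosphatase PP2A, differed by 0.16 on D14421_at and 0.03 on rc_AI103238_at, both with overlap. Genes of tubulin folding, modification and severing had 5 of 6 higher, with a median of 0.05. The tubulin deacetylase gene Sirt2 differed by 0.14 ± 0.079 (SE) without overlap, and the severing enzyme gene Spast by 0.09 and the deacetylase gene Hdac6 by 0.05 with overlap.

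**Figure D5:**
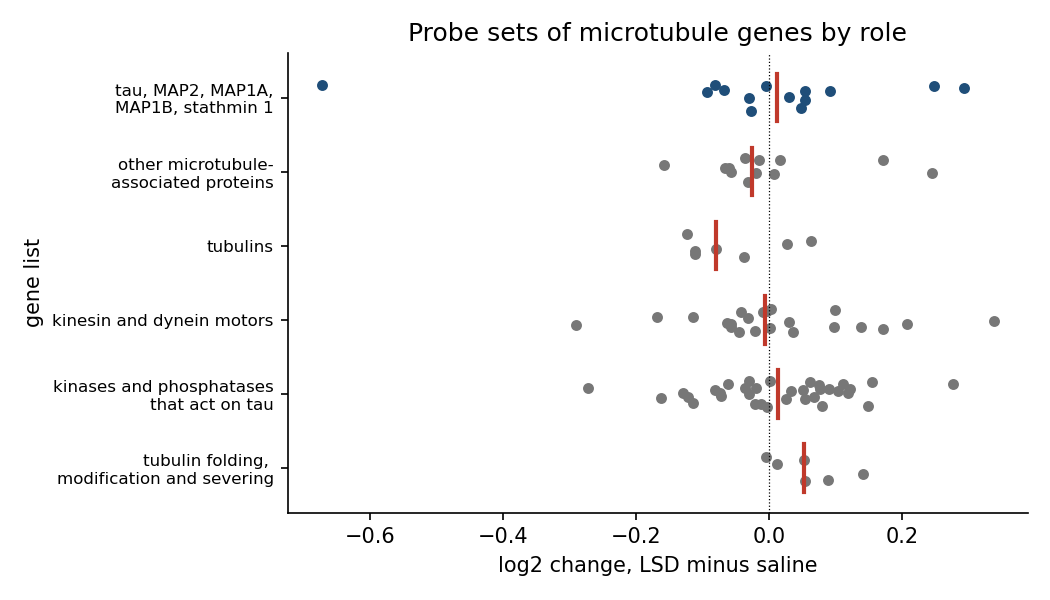
LSD minus saline in log2 units (horizontal axis) for probe sets of microtubule genes grouped by role (vertical axis), with 1 point per probe set and a red line for the median of each group. The medians lie between -0.08 for tubulins and 0.05 for tubulin folding, modification and severing, and X79321_at of Mapt is the point at the far left.

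Profiles like those of the Mapt probe sets were sought over the 6 arrays among all probe sets with 1 symbol, as the lowest root-mean-square distance between values centred on their mean. For X79321_at the nearest were probe sets of the mitochondrial gene COX3 (0.061 log2 units), the matrix protein gene Sparc (0.10) and the chaperone gene Hspa4 (0.10). The median distance was 0.36. For rc_AI227608_s_at they were probe sets of the ATP synthase subunit gene Atp5po (0.053), the isoprenoid synthesis gene Fdps (0.062) and the small heat shock protein gene Hspb1 (0.065). The median here was 0.21. All 3 probe sets of the first list were lower after LSD without overlap and all 3 of the second were higher. These lists follow from the contrast itself. They hold single probe sets, and others of the same gene can differ. Those of Hspa4 and Fdps were dim, at 3.47 to 4.39 and 3.65 to 4.12 log2 units over the 6 arrays. The log2 changes spanned 0.76 log2 units over the probe sets of Sparc and 0.36 over those of Hspa4. For Fdps, Hspb1 and Atp5po the spans were 0.30, 0.30 and 0.21.

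Tau and MAP2 are made mainly by neurons, so markers of neurons and of other cells in the dissected tissue were set beside them. In bulk tissue, fewer cells of a type and less RNA per cell cannot be told apart. Of 23 probe sets of 13 neuronal markers, 15 were higher and 8 lower after LSD, and their summed linear level was 10431 to 10586 on the saline arrays and 11126 to 11546 on the LSD arrays, without overlap. The summed level of astrocyte markers (12 of 21 probe sets higher) was 18348 to 19153 and 17709 to 18095, and that of choroid plexus markers (5 of 11 higher) 3381 to 3548 and 2649 to 2720, both lower on all LSD arrays. The sum weighs bright probe sets most, and the median log2 change of the astrocyte markers was 0.03, with 5 of 21 higher and 3 lower without overlap. For neuronal markers the median was 0.11, with 9 of 23 higher and 1 lower without overlap. For choroid plexus markers it was -0.08, with 1 of 11 higher and 3 lower. Those 11 probe sets were of only 4 genes, and 6 of them were of Igf2. Without overlap, 2 of 14 oligodendrocyte, 2 of 16 microglial and 0 of 7 endothelial probe sets were higher, and 0 of each were lower. The shares without overlap over all probe sets were 6.58% with LSD higher and 3.79% with LSD lower. Oligodendrocyte (8 of 14 higher), microglia (7 of 16), endothelial (2 of 7) and striatal markers (2 of 16) overlapped in their summed level, at 4895 to 5927 against 5489 to 5600, 1517 to 1589 against 1552 to 1600, 708 to 798 against 698 to 740, and 1445 to 1509 against 1317 to 1466. Striatal markers had the lowest median of the 7 marker lists, at -0.14, and 6 of their 16 probe sets were lower without overlap, against 3.79% of all probe sets. None of the marker probe sets passed in limma over all probe sets. An unadjusted p below 0.05 was found for 7 of 23 neuronal, 7 of 21 astrocyte, 5 of 11 choroid plexus, 4 of 16 striatal and 1 of 14 oligodendrocyte probe sets, and for 0 microglial and 0 endothelial ones, against 3.92% of all probe sets. As a measure of RNA integrity, the 3′ minus 5′ control probe sets of beta-actin gave 0.83, 0.75 and 0.78 log2 units with saline and 0.71, 0.71 and 0.64 with LSD (two-sided exact permutation p = 0.1, the smallest that 20 assignments allow). The Gapdh pair gave 0.52 ± 0.043 with saline and 0.49 ± 0.091 with LSD (SD, n = 3, two-sided exact permutation p = 0.7). The part of cell composition and of RNA integrity in the disagreement of the Mapt probe sets was not tested.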

How the data were processed

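Labelled RNA of the mPFC was hybridised to 6 Affymetrix rat genome arrays, 3 per group by the titles. The deposited values are log2 values, produced by the authors with rma from the Affy package (background correction, quantile normalisation across arrays and probe summarisation), with no version given in the sources used here. Quantile normalisation hides changes shared by most transcripts. Arrays have no read depth, and their number limits the precision. Of 8799 probe sets, 59 controls were left out. In the platform annotation 7006 of the rest had 1 symbol, 308 several and 1426 none. By gene ID 6985 matched RefSeq genes of GRCr8, which changed 0 symbols.

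LSD was compared with saline by limma, version 3.58.1, under R 4.3.3, as a two-sided moderated fit without covariates over all 8740 probe sets. P-values were adjusted by Benjamini-Hochberg over all of them and called below 0.05. The script was tested on simulated data. Named genes were all member probe sets, up to 3 probe sets of lowest p per functional list, to which the other probe sets of those genes were added after values had been seen, and the 3 nearest profiles of 2 Mapt probe sets. Alternatives were other scalings, a filter on dim probe sets, other variance models, array weights, a block for the replicate number, an exact rank test, gene-level values and leaving out arrays. Members and lists were chosen with earlier results of these data known.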

Additional observations from a re-analysis of the deposited data

How the results depend on the processing

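The 1 member call, X79321_at of Mapt, was kept after median centring, repeated quantile normalisation, cyclic loess and the filter on dim probe sets, and with an intensity trend and robust prior or array weights (limma adjusted p from 0.00105 to 0.0396 over these). It was lost with the replicate number as a replicate block (0 member probe sets called, adjusted p = 0.206 in limma, and 262 of all probe sets at an unadjusted p below 0.05). The labels share replicate numbers only: deviations of Saline and LSD arrays of the same number correlated at -0.018, -0.232 and 0.175. Pairs of different numbers ran from -0.15 to 0.205. The call was also lost without any 1 array (0 called in each). In the exact Wilcoxon rank sum test, which cannot go below p = 0.1, 0 members and 0 of all probe sets were called, also unadjusted. The call was lost too when 1 probe set per symbol was kept (0 members), since X79321_at then dropped out. With Saline 1 and LSD 1, the arrays of lowest weight, left out together, an alternative added after seeing the data, 0 members and 4 of all probe sets were called.

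Over all probe sets, 6 calls became 16 among probe sets above the median level, 20 with the trend and robust prior, 42 with array weights (21 higher, 21 lower), 0 with the block, 1 with 1 probe set per symbol, and between 0 and 3 without 1 array. The 3 calls were those without Saline 1. With array weights, 1489 of all probe sets had an unadjusted limma p below 0.05, against 343 in the main fit. Of the probe sets of the functional lists 0 were called in each of these alternatives, of which 7 were added for the lists after seeing the data. Over 12 alternatives the sign of the log2 change held for X79321_at (-0.70 to -0.65), rc_AI227608_s_at (0.22 to 0.40), rc_AI228850_s_at of Map2, U30938_at of Map2, U52950_at of Map1b and the Stmn1 probe set, and it turned in at least 1 for the other 8. The cause of these shifts was not tested. Among the 12, the replicate block cannot alter a log2 change, since each number occurs once per group. Median centring moves all probe sets alike. These settings therefore say little about how stable a sign is.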
